A study of Mus musculus with 17 samples.

Results

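Whole-kidney RNA of 3 PRCC‐TFE3 KI/Hif2α KO mice was compared with that of 3 PRCC‐TFE3 KI mice, so that 6 of the 17 kidneys of the series carry the comparison. Each library was placed in its group by the genotype and title given for it. All 17 mice carry the PRCC‐TFE3 knock-in behind a loxP-stop-loxP cassette, and in the 2 groups compared here Ksp-Cre, which is active in tubular epithelium under the Cadherin 16 promoter, switches the fusion on. The Hif2α KO mice (genotype HIF2af/f) differ from the KI mice by floxed alleles of Epas1, the gene of HIF2α, that the same Cre removes. The KI mice carry no floxed HIF gene. The other groups serve as references, and they also help to set the spread behind each p-value, because all 17 libraries were fitted together. They are 4 Hif1α KO kidneys (HIF1af/f with the fusion), 3 DKO kidneys (both floxed genes with the fusion) and 4 Cre(−) kidneys without active fusion. Of the Cre(−) kidneys, replicates 1 and 2 carry HIF1af/f and the other 2 carry no floxed gene. Mice of these genotypes were examined by histology at 8 months of age, but the age, sex and batch of the sequenced kidneys are not given with the samples. Cells outside the Ksp-Cre lineage keep HIF2α in every group, and a whole-kidney library mixes both kinds of cell.

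HIF2α is an oxygen-regulated transcription factor. When oxygen is present, prolyl hydroxylases of the EGLN family mark it and the VHL protein has it degraded, and when it is stable it pairs with ARNT and binds hypoxia response elements. In the kidney it drives erythropoietin in interstitial cells and is the main oncogenic HIF subunit of clear cell carcinoma. PRCC-TFE3 is a fusion of the MiT/TFE factor TFE3 found in translocation renal cell carcinoma, and MiT/TFE factors switch on lysosomal genes and the folliculin and Rag GTPase genes.

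The KI libraries held 16504419, 17851649 and 18173319 expected counts and the Hif2α KO libraries 21711031, 20807326 and 18001108. Values below are CPM (the counts of a gene relative to a library size scaled by TMM), and they are listed in the order of replicates 1, 2 and 3. Differences are log2 fold changes of Hif2α KO minus KI from the quasi-likelihood test of edgeR, adjusted by Benjamini-Hochberg over 17011 genes, with a threshold of 0.05 on the adjusted p. Some libraries stood apart in RNA of other cells. KI replicate 2 had 3292 CPM summed over 15 adipocyte markers, where the other 5 kidneys had 173.1 to 483 CPM, and KI replicate 3 had 465 CPM summed over red blood cell markers, where the others had 71.5 to 127.5 CPM. The Y-linked genes Ddx3y and Eif2s3y did not exceed 0.202 CPM in any of the 6 kidneys, so these markers did not set the groups apart. In whole-kidney RNA, fewer cells of a type and less RNA per cell cannot be told apart.

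Epas1 itself, on chromosome 17 from 86753700 to 86833410 of GRCm38, had 173, 192 and 179 CPM in KI kidneys against 146, 149 and 136 CPM in Hif2α KO kidneys. Every Hif2α KO value was below every KI value, and the difference did not pass the threshold (log2 fold change -0.33, standard error 0.09, edgeR adjusted p = 0.0788). Nearly all of its counts belonged to 1 transcript, ENSMUST00000024954.10, and a sum over a whole transcript does not show whether floxed exons are present. DESeq2's Wald test placed the same difference past the threshold (adjusted p = 0.0139).

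None of 11 genes that sense oxygen or encode HIF subunits and partners passed the threshold, beside 1.39% of all genes tested. Their median log2 fold change was -0.12 where that of all genes was -0.007. All 11 had a negative log2 fold change, beside 51.1% of all genes tested. Their summed level was 940 to 996 CPM in KI kidneys against 774 to 919 CPM in Hif2α KO kidneys, without overlap. Vhl, the ubiquitin ligase subunit that binds hydroxylated HIFα, had 41.04, 45.4 and 51.8 CPM in KI kidneys against 28.2, 34.4 and 35.7 CPM in Hif2α KO kidneys. Its groups did not overlap, and the adjusted p was 0.0608 with a log2 fold change of -0.49. Hif3a, a further HIFα subunit, ranged from 1.15 to 6.90 CPM in KI kidneys and from 0.962 to 2.23 CPM in Hif2α KO kidneys (log2 fold change -1.45, standard error 0.51, edgeR adjusted p = 0.141). Hif1a, the gene of the related subunit, had 228, 232 and 184 CPM in KI kidneys against 170.1, 199 and 256 CPM in Hif2α KO kidneys, with overlapping groups. Its dimer partner Arnt stood at 56.4, 58.8 and 62.7 CPM in KI kidneys against 59.3, 56.2 and 55.4 CPM in Hif2α KO kidneys. The remaining members, which include the prolyl hydroxylases Egln1, Egln2 and Egln3, had log2 fold changes between -0.27 and -0.06.

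Genes known as preferred targets of HIF2α did not pass the threshold in either direction. Of 22 such genes 18 were tested and 0 were called, where 1.39% of all genes tested were called. Of the 18, 12 had a negative log2 fold change, beside 51.1% of all genes tested. Their median was -0.25, and it was -0.03 without KI replicate 3. The summed level of the 22 genes was 3318 to 4211 CPM in KI kidneys against 2830 to 3139 CPM in Hif2α KO kidneys, without overlap. Igfbp3, which binds insulin-like growth factors, came nearest, with 132, 126 and 204 CPM in KI kidneys against 119, 98.99 and 86.9 CPM in Hif2α KO kidneys. Its highest Hif2α KO value lay below its lowest KI value (log2 fold change -0.60, standard error 0.18, edgeR adjusted p = 0.0962). Vegfa, the main angiogenic ligand of the kidney, was also lower without overlap at 186, 186 and 182 CPM against 193, 215 and 315 CPM in KI kidneys, and it did not pass (log2 fold change -0.38, standard error 0.14, edgeR adjusted p = 0.141). The highest KI value of both genes came from replicate 3. Tgfa, a ligand of the EGF receptor, overlapped between the groups, with 25.3, 28.1 and 32.2 CPM in KI kidneys against 17.2, 21.6 and 27.5 CPM in Hif2α KO kidneys (adjusted p = 0.193). Ccnd1, the cyclin D1 gene, overlapped as well at 1672, 1586 and 1013 CPM in KI kidneys against 918, 1057 and 1220.4 CPM in Hif2α KO kidneys. The lipid droplet protein gene Plin2 had a log2 fold change of -0.23 (edgeR adjusted p = 0.487). Slc11a2 was lower without overlap, at 152, 138 and 162 CPM in KI kidneys against 104, 114 and 133 CPM in Hif2α KO kidneys. It did not pass (log2 fold change -0.36, standard error 0.19, edgeR adjusted p = 0.31). The remaining tested targets, among them Adm, Pdgfb, Mmp14 and Cxcr4, had log2 fold changes from -0.65 (Adm) to 0.21 (Mmp14). Epo, Pou5f1, Il6 and Fgf21 were below the filter on low counts. Epo, the erythropoietin gene, had 0 counts in 2 of 3 KI libraries and in all Hif2α KO libraries, where 3 counts would equal 0.13 to 0.172 CPM.

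Across all genes 236 passed the threshold, 1.39% of those tested. They divided into 126 genes higher in Hif2α KO kidneys (0.741%) and 110 lower (0.647%), and 3262 genes had an unadjusted p under 0.05. The higher genes had a median fold change of 1.84 and the lower genes of 0.62, and 51 and 27 of them reached an absolute log2 fold change of 1. In all 236 the 3 values of one group lay outside the range of the other, as they did for 9.52% (higher) and 10.7% (lower) of all genes tested. The calls leaned on single libraries. Without KI replicate 3 only 13 genes passed, and without KI replicate 1 the number was 857. A fit of these 6 libraries alone called 2 genes, 1 higher (the pseudogene Gm6969) and 1 lower. All 236 genes had an unadjusted p under 0.05 in that fit. They had been chosen with the same 6 libraries, so this is not separate support for them.

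In each of the 6 fits that left out 1 library, 11 of the 236 genes passed. In the fit of the 6 compared libraries alone, Gm6969 was the only one of these 11 to pass (edgeR adjusted p = 0.0004345). The others had edgeR adjusted p-values from 0.0536 (Tmcc3) to 0.197 (Sept9) in that fit. Lower among them were Sema6a, a membrane semaphorin, with 196, 217 and 264 CPM in KI kidneys against 94.9, 109 and 111 CPM in Hif2α KO kidneys (log2 fold change -1.10, standard error 0.16, edgeR adjusted p = 0.00949), and Tmcc3, a protein of the endoplasmic reticulum membrane, with 163, 163 and 167 CPM against 96.4, 87.7 and 85.9 CPM (log2 fold change -0.87, standard error 0.12, edgeR adjusted p = 0.00949). Trappc12, a subunit of a vesicle tethering complex, fell from 73.2, 79.2 and 81.3 CPM to 49.9, 49.1 and 53.2 CPM (log2 fold change -0.62, standard error 0.08, edgeR adjusted p = 0.00661), with values tightly grouped in both genotypes. Acpp, an acid phosphatase, went from 37.6, 31.3 and 19.9 CPM to 9.24, 11.99 and 13.3 CPM (log2 fold change -1.36, standard error 0.22, edgeR adjusted p = 0.0145), and Cox7a2l is described further on. Higher in each fit were Reln, Sept9, Ifi44, Rtp4, D430019H16Rik and the pseudogene Gm6969. Reln, which encodes the secreted matrix glycoprotein reelin, had 104, 72.5 and 62.6 CPM in KI kidneys against 199, 197 and 182 CPM in Hif2α KO kidneys (log2 fold change 1.27, standard error 0.18, edgeR adjusted p = 0.00949). The Hif2α KO kidneys were close to each other and, as for every gene called higher, all above the highest KI kidney. Sept9, a septin of the cytoskeleton, had 43.2, 37.6 and 28.9 CPM against 56.02, 57.7 and 58.8 CPM (log2 fold change 0.65, standard error 0.11, edgeR adjusted p = 0.0155). Of these 11 genes, Cox7a2l and Acpp apart, none was singled out by the naming rule, and the others are named because they passed in each fit.

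Interferon-stimulated genes formed the list with the largest share of members called. Of 16 genes 8 were higher in Hif2α KO kidneys, 0 were lower, and 15 had a positive log2 fold change, with a median of 0.83. For all genes tested, 0.741% were higher, 51.1% had a negative log2 fold change and the median was -0.007. Isg15, a ubiquitin-like protein attached to other proteins under interferon, had 4.25, 2.32 and 1.25 CPM in KI kidneys against 6.52, 10.98 and 7.79 CPM in Hif2α KO kidneys (log2 fold change 1.69, standard error 0.31, edgeR adjusted p = 0.0213). Zbp1, a sensor of Z-form nucleic acids, had 6.61, 6.46 and 2.45 CPM and 19.2, 18.03 and 13.3 CPM (log2 fold change 1.70, standard error 0.29, edgeR adjusted p = 0.0159). In both genes KI replicate 3 was the lowest of the 6 kidneys. Irf7, the transcription factor that amplifies type I interferon production, had 35.1, 25.3 and 13.9 CPM in KI kidneys against 46.6, 94.7 and 55.8 CPM in Hif2α KO kidneys (log2 fold change 1.41, standard error 0.28, edgeR adjusted p = 0.0275). Ifit1, which binds foreign RNA, had 13.05, 9.801 and 4.62 CPM and 18.7, 26.9 and 22.5 CPM (log2 fold change 1.31, standard error 0.25, edgeR adjusted p = 0.0255). Hif2α KO replicate 2 was the highest of the 6 for Isg15, Irf7 and Ifit1 alike.

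The oligoadenylate synthetases, which sense double-stranded RNA and activate RNase L, also rose. Oas1a had 11.2, 8.24 and 6.45 CPM in KI kidneys against 14.6, 24.7 and 18.7 CPM in Hif2α KO kidneys (log2 fold change 1.16, standard error 0.20, edgeR adjusted p = 0.017), and Oas2 had 8.22, 6.25 and 5.59 CPM and 12.6, 19.5 and 15.4 CPM (log2 fold change 1.24, standard error 0.26, edgeR adjusted p = 0.0337). Oasl2, a related protein, had 25.5, 16.96 and 12.3 CPM and 38.1, 56.3 and 36.7 CPM (log2 fold change 1.26, standard error 0.23, edgeR adjusted p = 0.0213). Bst2, which tethers budding virus particles to the cell surface, had 31.8, 29.4 and 21.0 CPM and 39.95, 61.3 and 53.2 CPM (log2 fold change 0.91, standard error 0.15, edgeR adjusted p = 0.0159). As for every gene called higher, no Hif2α KO kidney fell to the level of a KI kidney in these 8 genes. Rsad2, Usp18 and Ddx58 had log2 fold changes of 0.71, 0.75 and 0.31 without passing. Transcripts of Oas1a and Oas1g are 97.6% identical over 1861 bases, so that their counts can be split either way.

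Beyond the list, and chosen after their values were seen, other genes known to respond to interferon were among the 126 higher genes. Ifi44 had 10.1, 7.92 and 5.48 CPM in KI kidneys against 19.01, 21.4 and 15.9 CPM in Hif2α KO kidneys (log2 fold change 1.26, standard error 0.18, edgeR adjusted p = 0.00974), and Rtp4 had 7.53, 6.08 and 3.88 CPM and 13.2, 17.2 and 13.01 CPM (log2 fold change 1.31, standard error 0.20, edgeR adjusted p = 0.0121). Parp9, Parp12, Parp14, Gbp2, Epsti1, Xaf1, Ifitm3, Psmb10 and Eif2ak2 were also called, with log2 fold changes from 0.49 (Parp9) to 1.36 (Epsti1). The calls of the list depended on single kidneys, since 1 of 16 genes passed without KI replicate 3, 2 without KI replicate 2 and 0 without Hif2α KO replicate 2.

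**Figure D1:**
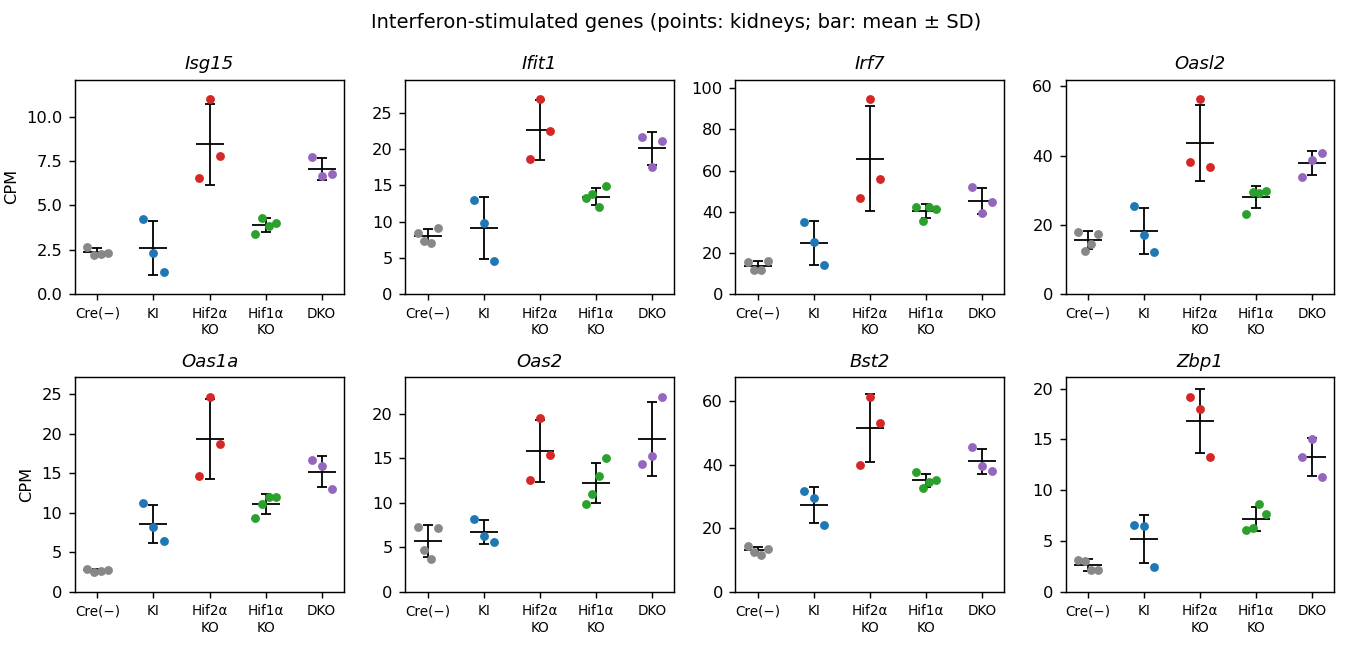
CPM of the 8 interferon-stimulated genes that passed the threshold, for each kidney (points) with group mean and SD (bars), on linear axes from 0. As for every gene called higher, the 3 Hif2α KO kidneys sit above the 3 KI kidneys in every panel, for Isg15 at 6.52 to 10.98 CPM against 1.26 to 4.25 CPM.

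The interferon-stimulated response element was looked for in the promoters, since these genes moved together. The motif searched was a pair of GAAA half-sites with 2 bases of any kind between them, on either strand, in the 300 bases from 250 before to 50 after the start of each gene as given by RefSeq for GRCm38.p6. Of the 126 higher genes 100 had a promoter sequence and 23 of these (23.0%) held the motif, whereas 0 of 77 promoters of the lower genes did and 3.96% of 12265 promoters of tested genes did. Among the 8 called list members 6 had a promoter sequence and 4 of them, Isg15, Ifit1, Bst2 and Oas1a, held it. In the whole list of 16 genes, 7 of 10 promoters (70.0%) held it, including those of Ifit3, Rsad2 and Ddx58, which were not called. The motif thus did not set called members apart from the others. The promoter of Isg15 (chr4:156200769-156201068, minus strand) is shown with its 3 overlapping matches in capitals.
Isg15: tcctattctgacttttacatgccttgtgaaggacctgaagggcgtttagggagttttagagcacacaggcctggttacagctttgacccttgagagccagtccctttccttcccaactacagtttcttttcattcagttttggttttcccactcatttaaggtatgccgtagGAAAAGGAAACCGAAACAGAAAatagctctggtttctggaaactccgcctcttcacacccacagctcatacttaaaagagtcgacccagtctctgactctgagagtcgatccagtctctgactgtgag

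Matrix genes rose in part. Of 23 tested collagens and other matrix genes 3 were higher and 0 lower, with a median log2 fold change of 0.32. Among all genes tested 0.741% were higher, with a median of -0.007. The 3 matrix genes called encode chains of collagens I and III, which form fibrils. Col3a1 had 119, 94.5 and 83.3 CPM in KI kidneys against 246, 249.9 and 298 CPM in Hif2α KO kidneys (log2 fold change 1.42, standard error 0.22, edgeR adjusted p = 0.0137). Col1a1 had 104, 77.3 and 59.6 CPM and 148, 181 and 188 CPM (log2 fold change 1.10, standard error 0.20, edgeR adjusted p = 0.0213), and Col1a2 had 113, 112 and 97.2 CPM and 166, 193 and 187 CPM (log2 fold change 0.76, standard error 0.14, edgeR adjusted p = 0.0214). KI replicate 3 was lowest for all 3 chains, and without it 0 of the list passed. Col5a1, Col6a2, Col6a3 and Col15a1 had log2 fold changes from 0.67 to 1.22 and adjusted p-values between 0.0574 and 0.0669. The summed level of the whole list overlapped, with 2827 to 3171 CPM in KI kidneys and 3151 to 4031 CPM in Hif2α KO kidneys. Of the markers of fibroblasts and pericytes 0 of 11 were called, with summed levels of 494 to 583 CPM in KI kidneys and 512 to 579.97 CPM in Hif2α KO kidneys.

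Targets of the fusion protein fell in part. Of 24 tested MiT/TFE target genes 3 were lower, 0 were higher, and 21 had a negative log2 fold change, with a median of -0.31. Over all genes tested 0.647% were lower, 51.1% had a negative log2 fold change and the median was -0.007. Rragc, a Rag GTPase that recruits mTORC1 to lysosomes, had 166, 187 and 184 CPM in KI kidneys against 127, 130.3 and 131 CPM in Hif2α KO kidneys (log2 fold change -0.47, standard error 0.09, edgeR adjusted p = 0.0231). Flcn, the folliculin gene, had 96.5, 101 and 110.4 CPM and 74.3, 75.4 and 79.2 CPM (log2 fold change -0.43, standard error 0.10, edgeR adjusted p = 0.0489). Mcoln1, the lysosomal calcium channel mucolipin, had 198, 185 and 215 CPM and 139, 147 and 153 CPM (log2 fold change -0.44, standard error 0.10, edgeR adjusted p = 0.0489). The Hif2α KO values of all 3 genes lay within a narrow range and, as for every gene called lower, below every KI value. Fnip2 and Fnip1, the partners of folliculin, had log2 fold changes of -0.55 and -0.38 without passing (adjusted p = 0.0518 and 0.0901). The summed level of the 25 genes was 21008, 22099 and 24243 CPM in KI kidneys against 10791, 15285 and 18796 CPM in Hif2α KO kidneys, beside 3070 to 3348 CPM in Cre(−) kidneys. Most of this sum in KI kidneys was Gpnmb, a membrane glycoprotein gene that MiT/TFE factors switch on, with 13009, 14211 and 15629 CPM in KI kidneys against 4953, 8779 and 11387 CPM in Hif2α KO kidneys. Its groups did not overlap, and it did not pass (log2 fold change -0.77, standard error 0.36, edgeR adjusted p = 0.262). Without it the tested members summed to 7888 to 8614 CPM in KI kidneys against 5838 to 7409 CPM in Hif2α KO kidneys. With DESeq2's size factors 1 of the 3 genes passed and with limma on log2(TPM + 1) 0 did. All 3 calls were lost in 5 of the 6 fits that left out 1 library, and 5 genes were called without KI replicate 1.

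A list of lysosomal genes shares 7 members with the MiT/TFE targets, so that it is not separate from them. In this list of 67 tested lysosomal hydrolases and membrane proteins, made after the data were seen, 7 were lower, 0 were higher and 51 had a negative log2 fold change (median -0.17). The shares over all genes tested were 0.647% lower and 51.1% negative. Without the shared members 6 of 60 were lower and 45 were negative (median -0.16). Psap, the precursor of the saposins that help degrade sphingolipids, had 5166, 4754 and 5926 CPM in KI kidneys against 3143, 3734 and 3978 CPM in Hif2α KO kidneys (log2 fold change -0.55, standard error 0.13, edgeR adjusted p = 0.048). Cln6, a membrane protein of the endoplasmic reticulum lost in a neuronal ceroid lipofuscinosis, had 190.0, 181 and 210.3 CPM and 113, 130.3 and 141 CPM (log2 fold change -0.60, standard error 0.11, edgeR adjusted p = 0.0214). Ctns, the cystine exporter of lysosomes, had 76.97, 77.5 and 86.2 CPM and 63.3, 55.3 and 54.7 CPM (log2 fold change -0.47, standard error 0.08, edgeR adjusted p = 0.0199). Other calls were Mcoln1, Ostm1 and Slc38a7, at -0.44, -0.36 and -0.36. Of 23 V-ATPase subunits, which acidify the lysosome and were also listed after the data were seen, Atp6v0d1 (-0.47) and Atp6v1c1 (-0.38) were lower and 0 were higher, with a median of -0.20. Napsa, Apoe, Agt and Irs2, also lower, are named after their values were seen, at log2 fold changes of -0.70, -0.53, -0.81 and -0.76.

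**Figure D2:**
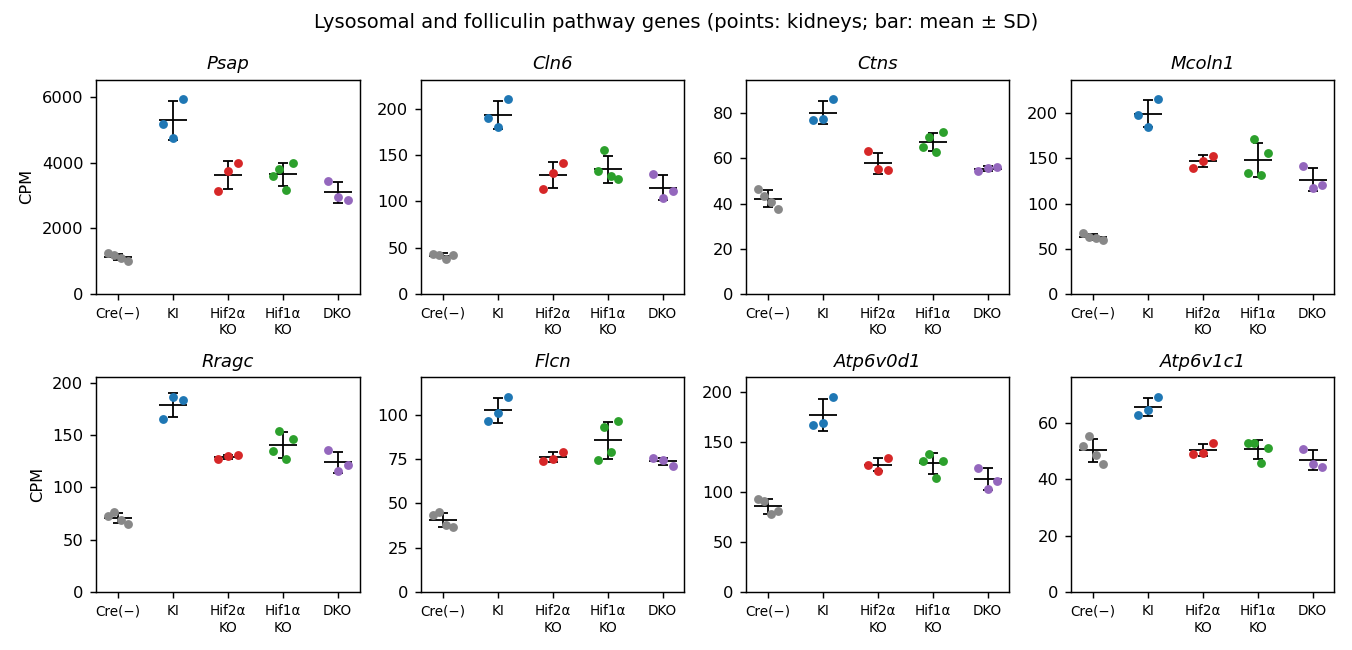
CPM of 8 lysosomal and folliculin pathway genes that were lower in Hif2α KO kidneys, for each kidney (points) with group mean and SD (bars), on linear axes from 0. For Psap the Hif2α KO kidneys lie at 3143 to 3978 CPM, below the KI kidneys at 4754 to 5926 CPM and above the Cre(−) kidneys at the left.

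MiT/TFE factors bind the E-box CACGTG within CLEAR elements. This motif, which reads the same on both strands, was present in 2 of the 3 promoters of the called MiT/TFE targets (Mcoln1 and Rragc), in 12 of 77 promoters of all lower genes (15.6%), in 8 of 100 promoters of the higher genes (8.0%) and in 10.8% of the promoters of tested genes. In the whole MiT/TFE list 6 of 22 promoters (27.3%) held it. The promoter of Mcoln1 (chr8:3500269-3500568, plus strand, GRCm38.p6, from RefSeq) holds it in 2 places, set in capitals.
Mcoln1: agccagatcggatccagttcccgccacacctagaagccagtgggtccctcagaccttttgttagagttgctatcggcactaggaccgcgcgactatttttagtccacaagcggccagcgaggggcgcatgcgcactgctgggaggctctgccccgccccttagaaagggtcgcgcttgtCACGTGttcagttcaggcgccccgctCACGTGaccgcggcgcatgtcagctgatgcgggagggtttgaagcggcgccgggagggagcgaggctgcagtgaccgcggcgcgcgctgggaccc

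The protein-coding genes with the largest changes were of mixed function. The strongest rise was that of Erich4, at 0.69, 0.377 and 0.97 CPM in KI kidneys against 11.4, 6.13 and 5.82 CPM in Hif2α KO kidneys (log2 fold change 3.52, standard error 0.64, edgeR adjusted p = 0.0213). Cre(−) kidneys held 56.01, 50.0, 39.5 and 44.5 CPM of it, so that the Hif2α KO values lay between those of the KI and Cre(−) kidneys. Cd226, an activating receptor of T and NK cells, had 0.575, 0.539 and 0.171 CPM in KI kidneys against 3.76, 1.49 and 1.82 CPM in Hif2α KO kidneys (log2 fold change 2.44, standard error 0.48, edgeR adjusted p = 0.0265). Dio2, the deiodinase that forms active thyroid hormone, had 1.72, 0.969 and 0.342 CPM and 3.46, 3.54 and 5.26 CPM (log2 fold change 2.01, standard error 0.46, edgeR adjusted p = 0.048). Apol9a, Cysltr2, Slfn1, Cpxm1, Plcb2, Oas1g and Mycbpap made up the rest with Zbp1 and Isg15, at log2 fold changes from 1.42 (Mycbpap) to 1.82 (Apol9a). Most of these were scarce, and Cpxm1, a secreted carboxypeptidase-like protein, had 8.34, 9.48 and 4.62 CPM against 28.3, 19.5 and 17.9 CPM.

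Among the lower genes Apoh, an apolipoprotein, had 1.495, 2.96 and 8.84 CPM in KI kidneys against 0.389, 0.394 and 0.456 CPM in Hif2α KO kidneys (log2 fold change -3.41, standard error 0.77, edgeR adjusted p = 0.0464). Its KI values spread widely, and KI replicate 3 was the highest. Rnase4, a secreted ribonuclease, had 100.2, 117 and 179 CPM and 47.0, 42.1 and 49.2 CPM (log2 fold change -1.52, standard error 0.33, edgeR adjusted p = 0.0384), and it overlaps Ang on the same strand. Cacna1e, a voltage-gated calcium channel subunit, fell from 228, 277 and 194 CPM to 120.3, 60.04 and 81.9 CPM (log2 fold change -1.41, standard error 0.26, edgeR adjusted p = 0.0213). Chst7, a carbohydrate sulfotransferase, had 26.04, 16.4 and 13.4 CPM against 8.77, 7.66 and 7.49 CPM (log2 fold change -1.22, standard error 0.23, edgeR adjusted p = 0.022). Ly6f, Col13a1, Kctd19, Omd, Acpp, Lrmda and Kcnt1 were also among the 12, at log2 fold changes from -2.97 (Ly6f) to -1.18 (Kcnt1).

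Most lists of nephron and immune cell markers had positive medians. Only 1 gene of these lists passed the threshold, where 1.39% of all genes tested did. Umod, the uromodulin made by the thick ascending limb, had 1193, 657 and 833 CPM in KI kidneys against 2876, 1624 and 1710.0 CPM in Hif2α KO kidneys (log2 fold change 1.21, standard error 0.28, edgeR adjusted p = 0.0489), and it was the only gene called in the lists of cell type markers. The 8 thick ascending limb markers had a median of 0.98 and summed to 931 to 1619 CPM in KI kidneys against 2109 to 3911 CPM in Hif2α KO kidneys. The 19 proximal tubule markers had a median of 0.81 with 0 called, and their sums overlapped at 1888 to 2524 CPM and 2054 to 4977 CPM, where Cre(−) kidneys held 33700 to 38095 CPM. Hif2α KO replicate 1 gave the highest sum of both. Miox, the proximal tubule inositol oxygenase, shows this with 70.1, 33.6 and 57.2 CPM in KI kidneys against 376, 68.8 and 122 CPM in Hif2α KO kidneys (adjusted p = 0.101).

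Immune markers are given beside the interferon-stimulated genes. None of them was called, where 1.39% of all genes tested were. Igkc, the immunoglobulin kappa constant region, had 1198, 864 and 676 CPM in KI kidneys against 4757, 2756 and 2675 CPM in Hif2α KO kidneys, without overlap and without passing (log2 fold change 1.90, standard error 0.58, edgeR adjusted p = 0.102). The 10 markers of B and plasma cells summed to 1557 to 2656 CPM in KI kidneys and 5896 to 11471 CPM in Hif2α KO kidneys, with 0 of 10 called. In Hif1α KO kidneys, which carry no floxed Epas1, these sums spread from 1959 to 14896 CPM. The 12 tested markers of T and NK cells had a median log2 fold change of 1.22 with 0 called, and their sums overlapped at 10.6 to 42.5 CPM and 34.5 to 110.5 CPM. Neither of the defining markers Cd3e and Igkc was at 0 in any of the 6 kidneys. Among the Hif2α KO kidneys the sums of both lymphoid lists were highest in replicate 1, and the macrophage sum was highest in replicate 2. The summed interferon-stimulated genes were also highest in replicate 2, at 779 CPM beside 593 CPM in replicate 1 and 592 CPM in replicate 3, and KI kidneys held 342 to 451 CPM. The part of immune cells in the interferon-stimulated result was not tested. Macrophage markers had a median of 0.28, with 0 of 12 called and summed levels of 1841 to 2019 CPM in KI kidneys and 1655 to 1839 CPM in Hif2α KO kidneys.

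Cox7a2l, a gene near Epas1, stood out for its copy elsewhere in the genome. It encodes a factor that assembles respiratory complexes into supercomplexes, and lies on chromosome 17 from 83501918 to 83517330, 3.25 Mb before Epas1. Its level was 181, 189 and 222 CPM in KI kidneys against 98.1, 110.4 and 109 CPM in Hif2α KO kidneys (log2 fold change -0.90, standard error 0.12, edgeR adjusted p = 0.00661). Gm6969, a processed pseudogene on chromosome 12 from 24638669 to 24639010, had 0.402, 0.431 and 1.08 CPM in KI kidneys against 84.1, 90.7 and 83.5 CPM in Hif2α KO kidneys (log2 fold change 7.07, standard error 0.46, edgeR adjusted p = 2.11e-06). It reached 43.2, 82.3 and 75.9 CPM in DKO kidneys, while Hif1α KO kidneys had 0.358, 0.675, 1.05 and 0.82 CPM and Cre(−) kidneys 0, 0.642, 0.463 and 1.33 CPM. High levels were thus found in all 6 libraries with HIF2af/f and in none of the 11 others. Added together, the 2 genes came to 181.3, 189 and 223 CPM in KI kidneys against 182.2, 201 and 192 CPM in Hif2α KO kidneys. Counted as 1 feature they did not pass the threshold (log2 fold change -0.04, standard error 0.09, edgeR adjusted p = 0.83).

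The sequences show where the copies differ. The 342 bases of Gm6969 align with the coding sequence of Cox7a2l with 334 identical bases, 2 mismatches and 6 bases that Cox7a2l lacks in the reference. The stretch from base 181 to base 330 of Gm6969, counted from the start codon, and the same stretch of Cox7a2l (GENCODE M21 transcripts, GRCm38) are given with the bases that differ in capitals.
Cox7a2l: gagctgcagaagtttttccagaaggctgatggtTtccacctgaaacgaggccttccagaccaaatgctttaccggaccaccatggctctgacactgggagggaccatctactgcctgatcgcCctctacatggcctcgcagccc
Gm6969: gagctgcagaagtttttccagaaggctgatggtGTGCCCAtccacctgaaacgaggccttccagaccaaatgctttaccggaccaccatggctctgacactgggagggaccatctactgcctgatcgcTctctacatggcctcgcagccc

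The reference genome is that of C57BL/6J, and it is known that this strain lacks these bases in Cox7a2l while other laboratory strains carry them. Reads from near-identical copies cannot be told apart by their gene counts alone. DNA that came with the floxed Epas1 allele and the loss of HIF2α cannot be told apart either, because all HIF2af/f kidneys here also express Cre. Of the 236 genes called, 34 have a transcript of another gene that is at least 95% identical over 200 bases or more.

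**Figure D3:**
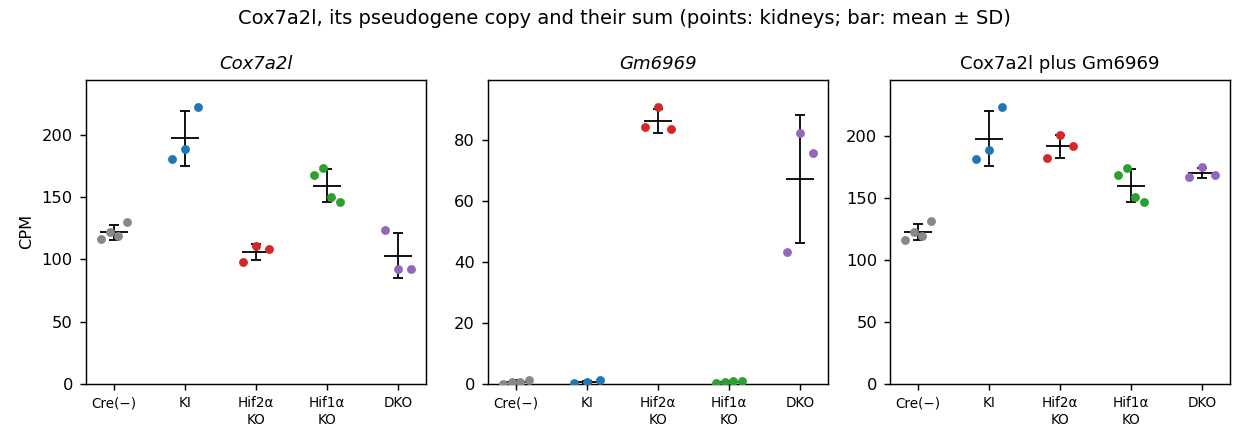
CPM of Cox7a2l, of its pseudogene copy Gm6969 and of their sum for each kidney (points) with group mean and SD (bars), on linear axes from 0. Gm6969 is at 43.2 to 90.7 CPM in the Hif2α KO and DKO kidneys and at most 1.33 CPM in the others, and the sums of the KI and Hif2α KO kidneys overlap.

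The share of genes called was larger close to Epas1 than over the chromosome, which was not tested. Within 10 Mb 5 of 69 tested genes passed (7.25%), or 4 when Cox7a2l and Gm6969 were counted together, and no further gene passed within 20 Mb (5 of 110, 4.55%), while 1.42% of genes on the whole of chromosome 17 did. Ppp1r21, an endosomal protein 1.78 Mb after Epas1, had 111, 182 and 179 CPM in KI kidneys against 76.8, 68.8 and 62.9 CPM in Hif2α KO kidneys (log2 fold change -1.18, standard error 0.17, edgeR adjusted p = 0.0101). Its neighbour Ston1, an endocytic adaptor, had 27.02, 40.9 and 48.4 CPM against 22.3, 24.2 and 18.2 CPM (log2 fold change -0.85, standard error 0.19, edgeR adjusted p = 0.0423). Eif2ak2, the kinase PKR that double-stranded RNA activates, rose from 37.1, 34.7 and 24.8 CPM to 42.5, 47.2 and 50.8 CPM (log2 fold change 0.54, standard error 0.12, edgeR adjusted p = 0.0464). Gm6548, a pseudogene with near-identical copies, had a log2 fold change of -1.17 (edgeR adjusted p = 0.0213).

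A second pseudogene was low in every kidney with a floxed HIF gene. Gm3375 on chromosome 7, 98.9% identical to the proteasome subunit gene Psmb5 over 796 bases, had 13.5, 13.3 and 14.04 CPM in KI kidneys against 0.043, 0.088 and 0.051 CPM in Hif2α KO kidneys, at least 89.6-fold lower when the floor of 3 counts per library is used. Cre(−) kidneys had 0.206, 0.107, 13.9 and 16.1 CPM, of which the first 2 carry HIF1af/f, and no Hif1α KO or DKO kidney exceeded 0.16 CPM. The gene was thus near 0 in all 12 kidneys with a floxed HIF gene and high in all 5 without one. It was chosen after its values were seen.

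The floxed Epas1 allele can be examined a second time in mice that lack HIF1α, since DKO and Hif1α KO kidneys share no library with the comparison above. DNA that came with this allele and the loss of HIF2α cannot be told apart here either. Epas1 itself had 163, 169, 166 and 179 CPM in Hif1α KO kidneys against 155, 165 and 158 CPM in DKO kidneys, which overlapped (log2 fold change -0.09, standard error 0.09, edgeR adjusted p = 0.724). There 69 genes passed (0.406%), with 15 higher (0.0882%) and 54 lower (0.317%). Without DKO replicate 2 the number was 6, and it did not exceed 35 without any 1 of the 7 libraries. Of the genes called in Hif2α KO against KI kidneys, 14 were called again in the same direction and 0 in the opposite one, which is 5.93% of the 236 and 20.3% of the 69. The log2 fold change had the same sign for 116 of the 126 higher genes and for 103 of the 110 lower genes, where 50.5% of all genes tested were positive. The sizes were smaller, with medians of 0.34 against 0.88 for the higher genes and -0.24 against -0.70 for the lower genes. The genes were chosen on the first comparison, so its medians are a description and not an independent estimate. A test of the difference between both effects called 0 genes by edgeR (1013 with an unadjusted p under 0.05) and 31 by DESeq2's Wald test.

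Of the 14 genes, Cox7a2l and Gm6969 were described above. Tmcc3 had 98.6, 129.6, 98.6 and 136 CPM in Hif1α KO kidneys against 83.5, 63.5 and 72.2 CPM in DKO kidneys (log2 fold change -0.66, standard error 0.12, edgeR adjusted p = 0.0296). Plin4, a lipid droplet coat protein, had 235, 371 and 304 CPM in KI kidneys against 183, 158 and 181 CPM in Hif2α KO kidneys. Its levels were 236, 260.4, 245 and 282 CPM in Hif1α KO kidneys against 149, 91.2 and 135 CPM in DKO kidneys. Its log2 fold changes in the 2 comparisons were -0.80 and -1.03. Tnfsf10, the death ligand TRAIL, was higher in both, at 26.3, 22.1 and 19.5 CPM in KI kidneys against 36.8, 37.9 and 35.5 CPM in Hif2α KO kidneys (log2 fold changes of 0.70 and 0.63). Lrmda, lower in both, went from 6.45, 5.04, 2.94 and 6.67 CPM in Hif1α KO kidneys to 0.39, 0.263 and 0.537 CPM in DKO kidneys, and from 7.3, 7.16 and 7.47 CPM to 3.37, 2.93 and 3.29 CPM between KI and Hif2α KO kidneys, and the difference between these effects did not pass, with an adjusted p of 0.0754 by edgeR. Others were Ppp1r21, Cpeb3, Tmem82, Mb21d2, Myo15b, Cdc14b and Phf11d.

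**Figure D4:**
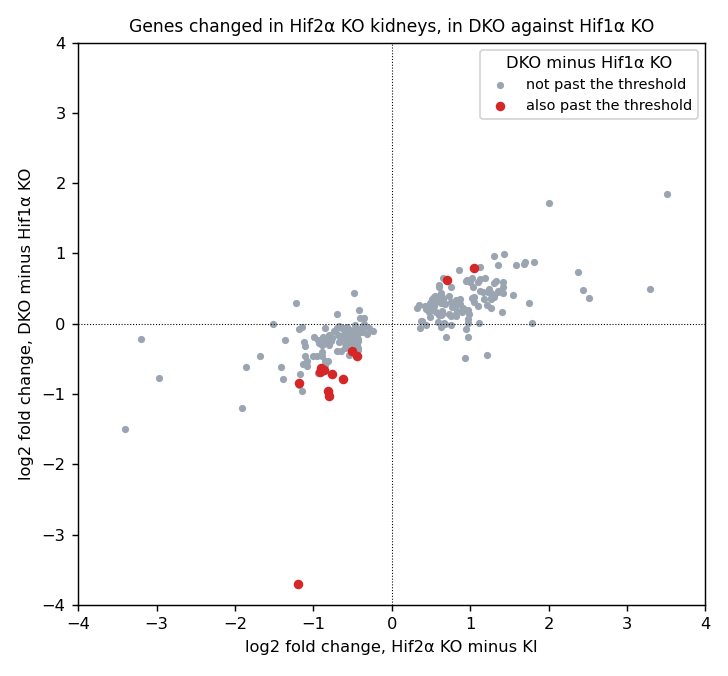
Log2 fold changes of the genes called in Hif2α KO against KI kidneys (x axis) in DKO against Hif1α KO kidneys (y axis), with genes also called there in red. Most points lie in the lower left and upper right of the plot, and 4 genes with an absolute value above 4 on either axis, Gm6969 among them, are not drawn.

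Lists with calls in Hif2α KO against KI kidneys had fewer in the second comparison, and lists without had some. Of the interferon-stimulated genes 0 of 16 passed, and the median log2 fold change was 0.44. Their summed level was 577 to 590 CPM in DKO kidneys against 421 to 470 CPM in Hif1α KO kidneys, without overlap. The MiT/TFE targets had 0 calls and a median of -0.18, and the matrix genes 0 calls and a median of 0.05. The summed levels of these latter lists overlapped. Isg15 had a log2 fold change of 0.86 (edgeR adjusted p = 0.193) and Col3a1 of 0.59 (edgeR adjusted p = 0.228). Among 16 NRF2 targets, which had no call above, 3 genes of antioxidant defence were lower in DKO kidneys, beside 0.317% of all genes tested, and the median was -0.36. These were Gclc (log2 fold change -1.53, edgeR adjusted p = 0.00464), Srxn1 (-0.73, adjusted p = 0.0457) and Txnrd1 (-0.53, adjusted p = 0.0495), and the heme oxygenase gene Hmox1 was lower as well (-1.30, adjusted p = 0.0457). Of the 7 fits that left out 1 DKO or Hif1α KO library, Gclc passed in 6, Txnrd1 and Hmox1 in 1 each and Srxn1 in 0. Among the HIF2α targets Plin2, which passed in 1 of these fits, was lower in DKO kidneys with a log2 fold change of -0.87 (edgeR adjusted p = 0.043).

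The remaining lists changed in few genes, beside 1.39% called and 51.1% negative over all genes tested. Of 27 glycolytic and HIF1α-preferred genes, 1 was higher and 0 were lower (median -0.21), and the one called, Pfkfb4, a regulator of glycolysis, had 5.98, 6.52 and 6.22 CPM in KI kidneys against 8.898, 10.5 and 10.2 CPM in Hif2α KO kidneys (log2 fold change 0.66, standard error 0.15, edgeR adjusted p = 0.0489). Bnip3, a mitophagy receptor and HIF1α target, had 62.2, 118 and 186 CPM against 62.3, 54.1 and 66.9 CPM without passing (adjusted p = 0.0707). Of 21 proliferation genes the spindle checkpoint kinase gene Bub1b rose from 4.08, 4.901 and 2.28 CPM to 8.38, 7.57 and 7.34 CPM (log2 fold change 1.05, standard error 0.24, edgeR adjusted p = 0.0485), 17 of the 21 were positive, and the median was 0.71, or 0.38 without KI replicate 3. The summed levels touched, at 266 to 353 CPM in KI kidneys against 352 to 396 CPM in Hif2α KO kidneys, and Mki67, the proliferation antigen Ki-67, had 47.5, 52.5 and 10.3 CPM in KI kidneys against 86.5, 49.8 and 67.3 CPM in Hif2α KO kidneys, with KI replicate 3 far below the others. Without that library 0 proliferation genes passed, and without KI replicate 1 the number was 7. Of 26 renal carcinoma and tubular injury markers the receptor tyrosine kinase gene Axl was higher at 74.8, 86.7 and 65.6 CPM against 54.7, 54.98 and 52.3 CPM in KI kidneys (log2 fold change 0.49, standard error 0.11, edgeR adjusted p = 0.0464). No member passed among 22 SREBP targets (median 0.03), 23 genes of fatty acid oxidation and ketone metabolism (-0.02), 18 angiogenic ligands and receptors (-0.10), 12 tested iron genes (-0.13) and 16 NRF2 targets (-0.08). Hmox1, a member of the iron list, had 91.97, 103 and 188 CPM in KI kidneys against 65.9, 68.5 and 80.1 CPM in Hif2α KO kidneys without passing (adjusted p = 0.11).

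**Figure D5:**
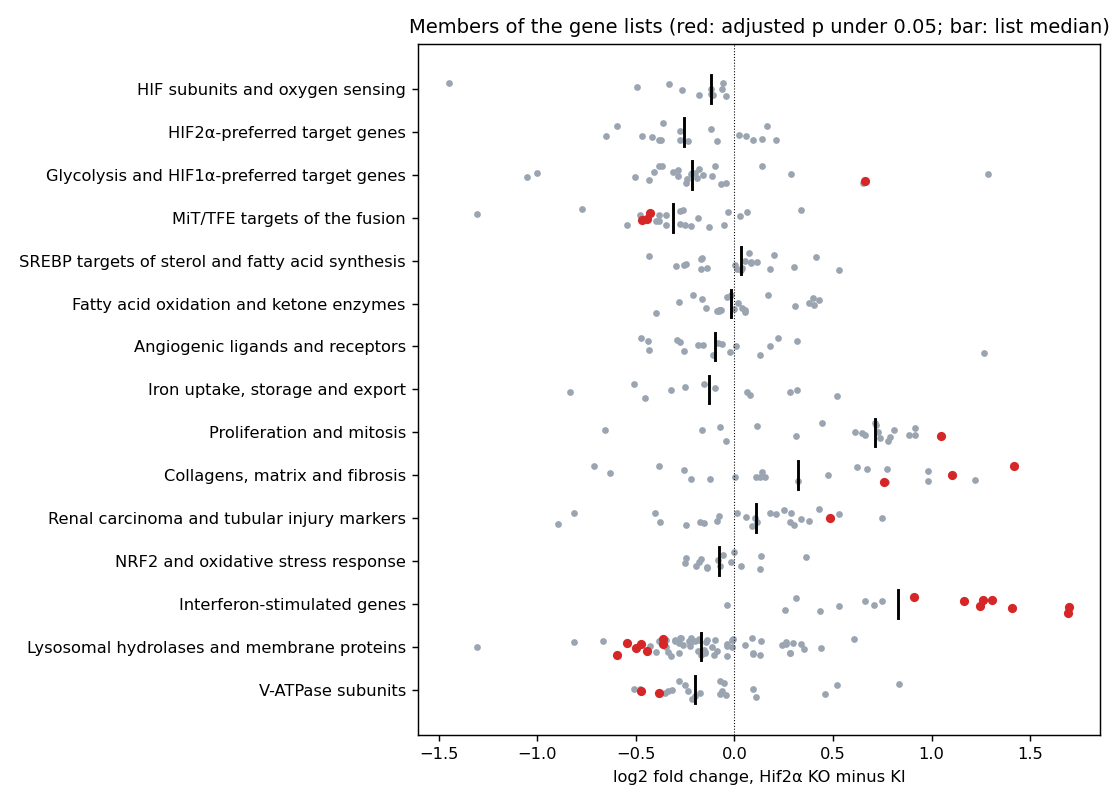
Log2 fold change of Hif2α KO minus KI kidneys (x axis) for each tested member (points) of 15 gene lists, with members past the threshold in red and the list median as a bar. Red points lie to the right for the interferon-stimulated genes (8 of 16) and to the left for the MiT/TFE targets (3 of 24) and lysosomal genes (7 of 67).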

How the data were processed

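Whole-kidney RNA of 3 PRCC‐TFE3 KI/Hif2α KO and 3 PRCC‐TFE3 KI mice was compared, and the other 11 kidneys served to estimate the spread. The study's methods describe stranded mRNA libraries read from a single end, trimmed with Trim Galore 0.6.6 and cutadapt 2.5, aligned with STAR 2.7.9a and quantified with RSEM. They name hg38 for alignment, while the files list mouse transcripts, so GENCODE M21 on GRCm38 was used here. The authors deposited expected counts, which need not be whole, and TPM for each transcript.

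Matched transcripts (116770 of 119353, with 99.04% to 99.24% of the counts) were summed to 35971 genes and rounded. Library totals ranged from 16504419 to 24668827, and a floor of 3 counts equals 0.117 to 0.206 CPM and covers counting error only. After filterByExpr at a minimum count of 10, 17011 genes were tested with edgeR 4.0.16 in R 4.3.3 (quasi-likelihood, TMM factors, all 17 libraries, a coefficient for each group). On simulated counts for Hif2α KO against KI kidneys with 200 changed genes among 17011, edgeR called 170 with 2.4% false and found 70% of 2-fold and 96% of 4-fold changes, and DESeq2 1.42.0 called 206 with 15% false. The simulated counts were drawn independently around a common mean of each gene with its fitted spread. They held no library that stood apart and no shift in cell types, so these shares need not hold for the real kidneys.

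Members and gene lists were chosen with earlier results of these data known. The genes named are those of the HIF pathway and HIF2α target lists, the 12 called protein-coding genes with the largest change each way (a mean of 1 TPM or more in a group and no overlap), called members of other lists with up to 4 more by p, and called genes within 20 Mb of Epas1, and others are said to be chosen later. A few genes that this rule names are not reported here. Alternatives were DESeq2's test and size factors, no filter, a fit of the compared groups alone, a replicate block, limma 3.58.1 on log2(TPM + 1) or log2(TPM + 0.1), a fold minimum, 1 library left out and, added after seeing the data, Cox7a2l and Gm6969 counted as 1. Similar transcripts were found with BLAST+ 2.17.0 and aligned with Biopython 1.88. No source says whether kidneys of a group shared a litter or batch, so p-values measure the spread between these samples.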

Additional observations from a re-analysis of the deposited data

How the results depend on the processing

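The number of genes called in Hif2α KO against KI kidneys (236) ranged from 13 to 857 over the fits that left out 1 replicate, lowest without KI replicate 3 and highest without KI replicate 1. It was 1015 with DESeq2's Wald test, 2 in a fit of the 2 groups alone, 83 with limma on log2(TPM + 0.1) and 78 when an absolute log2 fold change of 1 or more was required. The split of the calls was 126 higher and 110 lower with TMM factors and 123 and 105 with DESeq2's size factors, and with limma on log2(TPM + 1) it was 137 and 57. Called genes in DKO against Hif1α KO kidneys (69) ranged from 6 to 35 when 1 replicate was left out, and numbered 418 with DESeq2, 164 in a fit of these groups alone, 45 with limma on log2(TPM + 0.1) and 21 with the fold minimum. In that comparison limma on log2(TPM + 1) called 50 higher and 24 lower genes, where edgeR called 15 and 54. The difference between both effects had 0 calls, 31 with DESeq2 and 0 to 2 without 1 replicate.

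Interferon-stimulated genes called (8) fell to 0 in the fit of the 2 groups alone and ranged from 0 to 11 without 1 replicate. MiT/TFE targets called (3) numbered 7 with DESeq2, 1 with DESeq2's size factors, 1 without the filter, and 0 in the fit of the 2 groups alone and with limma at both pseudocounts, with 0 to 5 without 1 replicate. Matrix genes called (3) numbered 9 with DESeq2, 0 in the fit of the 2 groups alone and 0 to 7 without 1 replicate. HIF2α targets called (0) numbered 1 with DESeq2 and 0 to 1 without 1 replicate. Genes called within 20 Mb of Epas1 (5) numbered 18 with DESeq2, 0 in the fit of the 2 groups alone, 3 with limma on log2(TPM + 0.1) and 1 to 12 without 1 replicate. The log2 fold change of Epas1 was -0.33 with DESeq2 (adjusted p = 0.0139, past the threshold) and -0.36 to -0.29 without 1 replicate. The cause of these changes was not tested.

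With the replicate number as a block, 76 genes were called in Hif2α KO against KI kidneys and 13 in DKO against Hif1α KO kidneys, with 0 MiT/TFE targets and 1 matrix gene. The numbers name different mice, and deviations of same-numbered kidneys from their group means correlated at 0.053, -0.025 and -0.034, so the numbers do not pair the samples.

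Of 92 named genes with 1287 values under alternatives, 11 values changed sign. They belonged to Arnt, with log2 fold changes of 0.027 and 0.028 by limma at the larger and the smaller pseudocount, and Hif1a, with 0.0116 and 0.0115 in the same fits and -0.22 to 0.085 over the fits without 1 replicate, positive (0.0034 or more) without Hif2α KO replicate 1, KI replicate 1 or KI replicate 2. Over the fits without 1 replicate Gclc ranged from -0.30 to 0.14, Srxn1 from -0.20 to 0.17 and Txnrd1 from -0.13 to 0.0040, with signs turned in Gclc without KI replicate 3, in Srxn1 (-0.20 and -0.061) without Hif2α KO replicate 3 or KI replicate 2, and in Txnrd1 without Hif2α KO replicate 1. The other values kept their direction, 389 of them without passing the threshold that they passed in the report and 25 passing where they did not in the report. At 3 kidneys a group, changes of 2-fold were called only in part on simulated data.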

Other observations

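Genes outside the lists that were called and are named here after their values were seen included secreted antagonists of Wnt and BMP signalling. Dkk3, a member of the Dickkopf family, had 131, 156 and 152 CPM in KI kidneys against 103, 95.05 and 96.6 CPM in Hif2α KO kidneys (log2 fold change -0.58, standard error 0.10, edgeR adjusted p = 0.0159), and it passed in 4 of the 6 fits that left out 1 library. The BMP antagonist gene Nog went from 3.68, 2.53 and 2.34 CPM to 1.51, 1.27 and 1.11 CPM (log2 fold change -1.13, standard error 0.25, edgeR adjusted p = 0.0464), whereas Sostdc1, which antagonises both pathways, was higher at 31.8, 33.7 and 30.7 CPM against 20.6, 16.7 and 11.9 CPM in KI kidneys (log2 fold change 0.97, standard error 0.19, edgeR adjusted p = 0.0265). The Wnt receptor gene Fzd6 was lower, at 57.7, 64.1 and 62.4 CPM against 89.96, 85.7 and 109 CPM (log2 fold change -0.63, standard error 0.15, edgeR adjusted p = 0.0489). Nog passed in 0 of the 6 fits, Sostdc1 in 1 and Fzd6 in 1. The thyroid hormone receptor gene Thrb had a log2 fold change of -0.48 (edgeR adjusted p = 0.0302).

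Prdx6, a peroxiredoxin, had 742, 1044 and 1269.7 CPM in KI kidneys against 355, 508 and 515 CPM in Hif2α KO kidneys (log2 fold change -1.15, standard error 0.21, edgeR adjusted p = 0.0214). Tspan8, a tetraspanin of epithelial membranes, was higher at 148, 148 and 153 CPM against 108, 78.5 and 96.7 CPM in KI kidneys (log2 fold change 0.66, standard error 0.11, edgeR adjusted p = 0.0145), and it passed in 5 of the 6 fits. The immunoglobulin light chain segment Igkv13-85 was counted at 4.104, 12.6 and 4.55 CPM in Hif2α KO kidneys and at 0, 0.108 and 0 CPM in KI kidneys, and its transcript is 96.3% identical to Igkv13-84.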
